A study of Solanum lycopersicum with 9 samples.

Results

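The genes that set the level of the hormone abscisic acid were followed in guard cells of tomato (Solanum lycopersicum) through 5 loci, 3 of its synthesis and 2 of its catabolism, out of 23028 genes listed in the deposited table. The loci were taken by identifier, namely NCED1 (Solyc07g056570), NCED2 (Solyc08g016720) and zeaxanthin epoxidase (Solyc02g090890) for synthesis, and the CYP707A loci Solyc04g078900 and Solyc08g005610 for catabolism. These names come with the selection of the loci, since the table pairs no name with an identifier. All 5 had reads in every library and passed the filter on low values.

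Guard cells flank each stomatal pore of the leaf surface and regulate its width. RNA was read as poly A libraries from epidermal peels of blended, fully expanded leaves with the veins removed, from plants kept in a growth room, with 3 libraries for each of 3 genotypes. M82 is the cultivar itself, given in the labels as sp-/sp, and the lines pro and pro∆17 are in that same background. The line pro lacks function of DELLA, the nuclear repressor of gibberellin responses, and pro∆17 (written pro17 in the genotype label) expresses a gain-of-function form. The sources used here give neither the promoter behind pro∆17 nor plant age or a watering treatment for the sequenced samples, and the titles of pro∆17 libraries 2 and 3 carry other numbers after the delta sign. Whether libraries of one genotype stem from separate plants is not stated in the labels, so p-values measure only how these samples vary, and that variation may be technical.

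Abscisic acid is made from plastid carotenoids. Zeaxanthin epoxidase turns zeaxanthin into violaxanthin, and the NCED enzymes, the 9-cis-epoxycarotenoid dioxygenases, cut the epoxidised carotenoids to the precursor that leaves the plastid, a step regarded as rate-limiting. Enzymes of the CYP707A family hydroxylate abscisic acid and so start its breakdown. In drying leaves the hormone closes stomata.

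The libraries held 14826561 to 20445679 recovered reads. The lowest value of a member was 43 reads, of Solyc08g005610 in M82 library 1. The PROCERA locus Solyc11g011260, which encodes the single tomato DELLA, read 3754 to 3934 normalized counts in M82, 2851 to 4507 in pro and 5486 to 7448 in pro∆17, and a transcript level does not check a loss of DELLA function. The 2 loci taken from general knowledge as guard cell markers were read in every library, with a summed level of 1974 to 2504 normalized counts in M82, 1952 to 2779 in pro and 2018 to 2103 in pro∆17. The 11 loci taken as mesophyll markers were also read in every library, at a summed 267508 to 374143 in M82, 120914 to 428678 in pro and 285887 to 317437 in pro∆17. Guard cell chloroplasts can express such genes too, so how much of this RNA came from mesophyll cannot be told from the sums. None of these 13 marker loci was at 0 in any library. In such bulk samples, fewer cells of a type and less RNA per cell cannot be told apart. Pro library 3 stood apart: it held the lowest mesophyll sum, and Solyc02g084850, taken to encode a dehydrin, a protein of drying tissue, read 35710 there against 7.91 to 331 in the other 8 libraries.

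None of the 5 genes passed in any of the 3 comparisons between genotypes. The lowest unadjusted p belonged to the CYP707A locus Solyc04g078900, whose mean level was 2.49 times that of M82 in pro and 1.95 times in pro∆17. The 3 synthesis genes had means in pro 1.16 (NCED1), 1.31 (NCED2) and 1.44 times (zeaxanthin epoxidase) those of M82, and in pro∆17 0.914, 1.24 and 1.06 times. The call was made by limma on log2 of the normalized count plus 1, fitted on 20951 genes and all 9 libraries, at a Benjamini-Hochberg adjusted p of 0.05. That fit put Solyc04g078900 at 2.20-fold in pro against M82 and 1.97-fold in pro∆17 against M82. Without pro library 3 the fold in pro was 1.56, so the order of the 2 lines rests on that library. For scale, limma called 0.210% of all tested genes in pro against M82, 0.119% in pro∆17 against M82 and 3.40% in pro∆17 against pro.

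**Figure D1:**
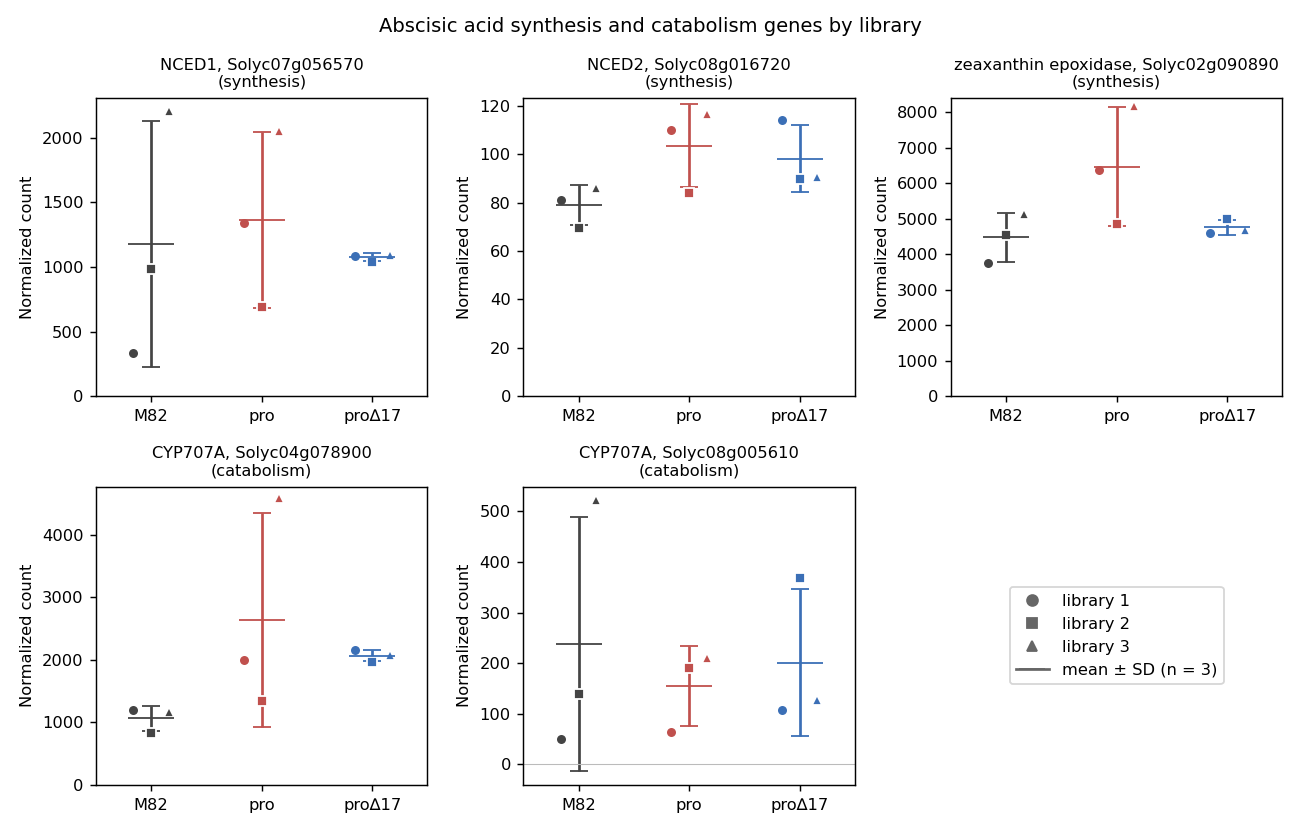
Normalized counts (y axis, linear, scale differing by panel) of the 5 genes in each library, by genotype, with circles, squares and triangles for libraries 1, 2 and 3 and a bar for the mean ± SD (n = 3). For the CYP707A locus Solyc04g078900, the pro and pro∆17 libraries all sit above the 3 M82 libraries, while for NCED1 the M82 libraries alone run from 334 to 2207.

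NCED1, the dioxygenase whose loss gives the wilty tomato mutant notabilis, read 334, 980 and 2207 normalized counts in M82 libraries 1, 2 and 3. It read 1337, 690 and 2052 in pro libraries 1, 2 and 3, and 1086, 1038 and 1096 in those of pro∆17. The 3 groups overlapped, with both the highest and the lowest value of all 9 libraries in M82. The means were 1174 ± 952 in M82, 1360 ± 681 in pro and 1073 ± 31.1 in pro∆17 (SD, n = 3), an order in which no neighbours differed beyond their spread. The log2 fold change was 0.46 in pro against M82 (95% interval -0.93 to 1.85, limma adjusted p = 0.799). For pro∆17 against M82 it was 0.26 (-1.13 to 1.65, limma adjusted p = 0.9998), a sign that follows the log scale, since the mean of the counts was lower in pro∆17. Between the mutants, pro∆17 against pro, it was -0.21 (-1.60 to 1.18, limma adjusted p = 0.884). All 3 intervals, from the fit of all 9 libraries that ignores the replicate number, include a doubling, and those with pro∆17 a halving too. In the 6 libraries of pro∆17 and pro alone, the interval was -1.07 to 0.66, without a doubling. With the number as a block in all 9 libraries, that of pro∆17 against M82 was -0.97 to 1.49, without a halving. The level of NCED1 thus cannot be said to be equal in the 3 genotypes.

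NCED1 varied to very different degrees within the genotypes. The SD between M82 libraries was 1.37 on the log2 scale, and 98.9% of the tested genes varied less there. In pro the SD was 0.79, above 83.0% of genes, and in pro∆17 it was 0.04, above only 8.07%. As a share of the mean, the SD of NCED1 was 81.1% in M82, 50.1% in pro and 2.90% in pro∆17, where Poisson counting of its reads alone gives 2.85%, 2.63% and 3.06%. The pro∆17 libraries thus differed no more than counting error. The median SD of all tested genes also was lowest in pro∆17, at 0.14 against 0.21 in M82 and 0.36 in pro. With 3 libraries a group these spreads are descriptions, and their difference was not tested. Within M82 and within pro, the library order of NCED1 was also that of the dehydrin locus Solyc02g084850, which read 12.6, 38.3 and 174 in M82 libraries 1, 2 and 3 and 331, 7.91 and 35710 in those of pro. Zeaxanthin epoxidase had this order in both genotypes, Solyc08g005610 in M82, and NCED2 and Solyc04g078900 in pro. How many of all genes share it was not counted. In pro∆17, where the dehydrin locus read 35.9 to 42.2, NCED1 was nearly level. Whether what raised the dehydrin locus also bears on NCED1 was not tested.

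NCED2, a further dioxygenase of the same step, was read at low counts, 71 to 130 reads per library. Its normalized counts were 81.1, 69.7 and 85.8 in M82 libraries 1, 2 and 3, then 110, 84.0 and 117 in those of pro, and 114, 89.8 and 90.5 in those of pro∆17. Every pro∆17 library lay above every M82 library, though the nearest values were only 85.8 and 89.8, and pro library 2 fell inside the M82 range. Groups of pro∆17 and M82 did not overlap, in either direction, at 21.1% of all tested genes. The means were 78.9 ± 8.30, 103 ± 17.2 and 98.2 ± 13.8 (SD, n = 3) in M82, pro and pro∆17. The log2 fold change was 0.38 in pro against M82 (-0.08 to 0.83, limma adjusted p = 0.719) and 0.31 in pro∆17 against M82 (-0.15 to 0.76, limma adjusted p = 0.843). Between the mutants it was -0.07 (-0.53 to 0.39, limma adjusted p = 0.878), so differences in either direction beyond 0.53 lie outside that interval. The SD of NCED2 was 10.5% of the mean in M82, 16.6% in pro and 14.1% in pro∆17, beside 11.3%, 9.61% and 10.1% from Poisson counting alone, so depth limits what can be said of this gene. It was the steadiest of the 5 genes, with 1.67-fold between its highest and lowest library, against 6.62-fold for NCED1.

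Zeaxanthin epoxidase, which acts upstream of both dioxygenases and also serves the xanthophyll cycle of the chloroplast, read 3760, 4528 and 5136 in M82 libraries 1, 2 and 3. In pro libraries 1, 2 and 3 it read 6357, 4838 and 8179, and in those of pro∆17 4595, 5000 and 4692. Pro libraries 1 and 3 lay above all other libraries, and pro library 2 lay among those of M82 and pro∆17. The means were 4474 ± 690 in M82, 4762 ± 212 in pro∆17 and 6458 ± 1673 in pro (SD, n = 3). The log2 fold change of 0.51 in pro against M82 had an interval of 0.05 to 0.97 and an unadjusted p of 0.0330, but did not pass over all genes (limma adjusted p = 0.706). Without pro library 3 it was 0.32 (limma adjusted p = 0.915), and without pro library 2 it was 0.70 (limma adjusted p = 0.0613). Against M82, pro∆17 gave 0.10 (-0.36 to 0.56, limma adjusted p = 0.9998), which leaves out a change of 1.5-fold or more. Against pro, it gave -0.41 (-0.86 to 0.05, limma adjusted p = 0.327). Without pro library 2 that change was -0.60 (limma adjusted p = 0.0509), just outside the threshold, in a fit that called 3196 of all tested genes. Without pro library 3 it was -0.22 (limma adjusted p = 0.527). Within pro, the library with the highest mesophyll sum, library 2 at 428678, held the lowest epoxidase level, and library 3, with the lowest sum of 120914, held the highest. NCED1, NCED2 and Solyc04g078900 were likewise lowest in library 2 and highest in library 3 within pro, and how many of all genes share this was not counted. The part of mesophyll RNA in these values was not tested.

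On the side of catabolism, the CYP707A locus Solyc04g078900 read 1192, 831 and 1166 in M82 libraries 1, 2 and 3. It read 2001, 1346 and 4587 in pro libraries 1, 2 and 3, and 2157, 1975 and 2074 in those of pro∆17. All 3 libraries of pro lay above all of M82, and so did all 3 of pro∆17. Groups did not overlap, in either direction, at 9.01% of all tested genes in pro against M82 and at 21.1% in pro∆17 against M82. The pro∆17 libraries fell within the range of pro, which was wide because library 3 stood more than 2-fold above library 1. The means were 1063 ± 201 in M82, 2069 ± 91.4 in pro∆17 and 2644 ± 1713 in pro (SD, n = 3).

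The log2 fold change of Solyc04g078900 was 1.14 in pro against M82 (SE 0.38, interval 0.29 to 1.99), with an unadjusted p of 0.0144 and a limma adjusted p of 0.614. Over libraries with the same number, the difference was 0.75, 0.69 and 1.97. Without pro library 3 the fold change was 0.64 (limma adjusted p = 0.554). Without pro library 2 it was 1.53 and passed (limma adjusted p = 0.0359), in a fit that called 3.66% of all tested genes. For pro∆17 against M82 the log2 fold change was 0.98 (SE 0.38, interval 0.13 to 1.83), with an unadjusted p of 0.0289 and a limma adjusted p of 0.547. Fitted on the 6 libraries of M82 and pro∆17 alone, the same fold change had an SE of 0.14 and passed (limma adjusted p = 0.0150), where 2.08% of all tested genes passed. Without pro library 3 the limma adjusted p was 0.0502, just outside the threshold. The change of call came with the variable pro libraries leaving the shared estimate of the spread, as the fold change itself was the same in these fits. The mesophyll sums of pro∆17 lay within those of M82, and the dehydrin locus was at 35.9 to 42.2 in pro∆17 against 12.6 to 174 in M82. In pro, the library order of Solyc04g078900 was the reverse of that of the mesophyll sum, as it was for all 3 synthesis genes. The part of mesophyll RNA, or of what raised the dehydrin locus, was not tested in either line. Between the mutants the fold change was -0.16 (-1.01 to 0.69, limma adjusted p = 0.847), and without pro library 3 it had the opposite sign, at 0.33 (limma adjusted p = 0.414).

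The other CYP707A locus, Solyc08g005610, read 49.1, 139 and 522 in M82 libraries 1, 2 and 3, a 10.6-fold range. It read 64.0, 190 and 211 in pro libraries 1, 2 and 3, and 106, 368 and 127 in those of pro∆17. The groups overlapped throughout, and the highest and the lowest value both came from M82. The means were 237 ± 251 in M82, 155 ± 79.3 in pro and 200 ± 146 in pro∆17 (SD, n = 3). The log2 fold changes were -0.16 in pro against M82 (-2.07 to 1.75, limma adjusted p = 0.949) and 0.15 in pro∆17 against M82 (-1.76 to 2.06, limma adjusted p = 0.9998). Between the mutants the value was 0.32 (-1.59 to 2.23, limma adjusted p = 0.868). All 3 of these intervals, from the fit that ignores the replicate number, include a 2-fold difference in either direction. With the number as a block, the interval in pro against M82 was -1.57 to 1.25 in all 9 libraries. In the 6 libraries of pro and M82 alone with that block, a combination chosen after seeing the data, it was -1.13 to 0.81, without a doubling. The log2 SD of this locus was 1.70 in M82, 0.94 in pro and 0.96 in pro∆17, above that of 99.5%, 88.3% and 99.0% of the tested genes, so it varied between libraries of every genotype. The 2 CYP707A loci differed in their overlap between groups: Solyc04g078900 did not overlap between M82 and either line, and Solyc08g005610 overlapped between all genotypes. Of all tested genes, 9.01% did not overlap in pro against M82 and 21.1% in pro∆17 against M82, and both comparisons use the same M82 libraries. The log2 SD of Solyc04g078900 was 0.29 in M82 and 0.06 in pro∆17, but 0.90 in pro, above 86.9% of the tested genes and close to that of Solyc08g005610.

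**Figure D2:**
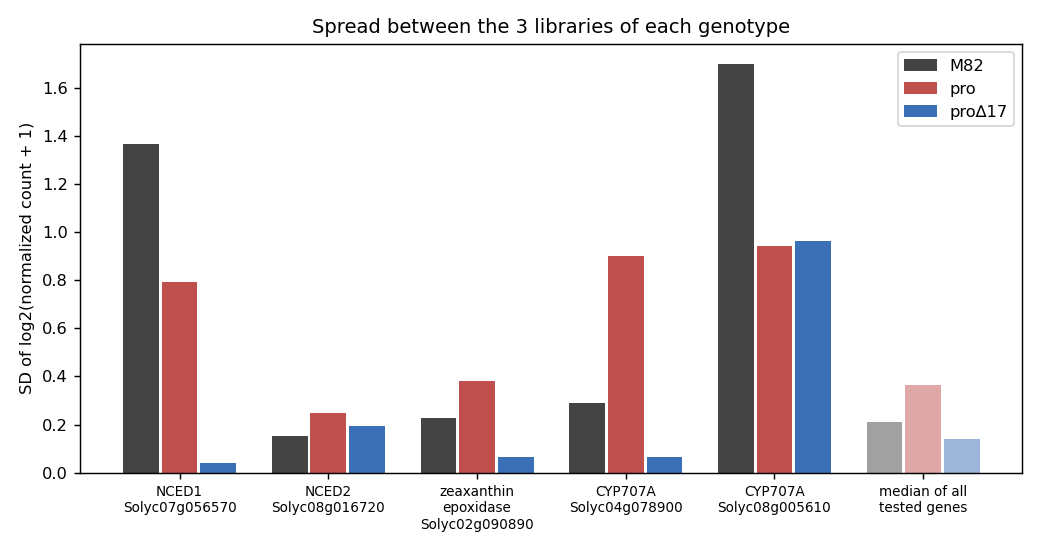
SD between the 3 libraries of each genotype, on the log2 scale of the normalized count plus 1 (y axis), for the 5 genes and, in pale bars, the median over all tested genes. NCED1 and Solyc08g005610 stand highest in M82, at 1.37 and 1.70, and NCED1 and Solyc04g078900 stand at 0.04 and 0.06 in pro∆17.

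In pro against M82, 0 of the 3 synthesis genes and 0 of the 2 catabolism genes passed, beside the 0.210% of all tested genes that did. The loci with an unadjusted p under 0.05 in limma were 2, zeaxanthin epoxidase and Solyc04g078900, and 6.83% of all tested genes had such a p. Neither edgeR, which called 0.181% of all genes, nor DESeq2, which called 0.875%, called a member. The groups did not overlap at 1 of 5 loci, Solyc04g078900, against 9.01% of all tested genes. The log2 fold change was positive at 4 of 5 loci, with a median of 0.46 against 0.00 over all tested genes. At 3 of the 5 loci (NCED2, zeaxanthin epoxidase and Solyc04g078900) the top value came from pro library 3, as it did at 29.4% of all tested genes.

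In pro∆17 against M82, 0 of 3 synthesis and 0 of 2 catabolism genes passed, beside 0.119% of all tested genes. One locus, Solyc04g078900, had an unadjusted p under 0.05 in limma, against 7.79% of all genes, and neither edgeR (0.0811% of genes called) nor DESeq2 (1.56%) called a member. The groups did not overlap at 2 of 5 loci, NCED2 and Solyc04g078900, against 21.1% of all tested genes. All 5 fold changes were positive in limma, with a median of 0.26 against -0.01, but those of NCED1 and Solyc08g005610 were negative with edgeR (-0.12 and -0.23) and DESeq2 (-0.13 and -0.24).

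In pro∆17 against pro, 0 of 5 loci passed, beside 3.40% of all tested genes. None had an unadjusted p under 0.05 in limma, against 18.1% of all genes, and neither edgeR (3.16%) nor DESeq2 (8.84%) called one. The groups overlapped at all 5 loci, while 22.9% of all tested genes did not overlap. The median log2 fold change was -0.16 against 0.01 over all tested genes, and 4 of 5 changes were negative. Without pro library 3, 3 of those 4 were positive, zeaxanthin epoxidase being the exception at -0.22. Without pro library 2, all 4 stayed negative, at -0.63 (NCED1), -0.21 (NCED2), -0.60 (zeaxanthin epoxidase) and -0.55 (Solyc04g078900), and none passed. The comparisons of pro and of pro∆17 with M82 use the same 3 M82 libraries, so their values at a locus are not independent of each other.

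**Figure D3:**
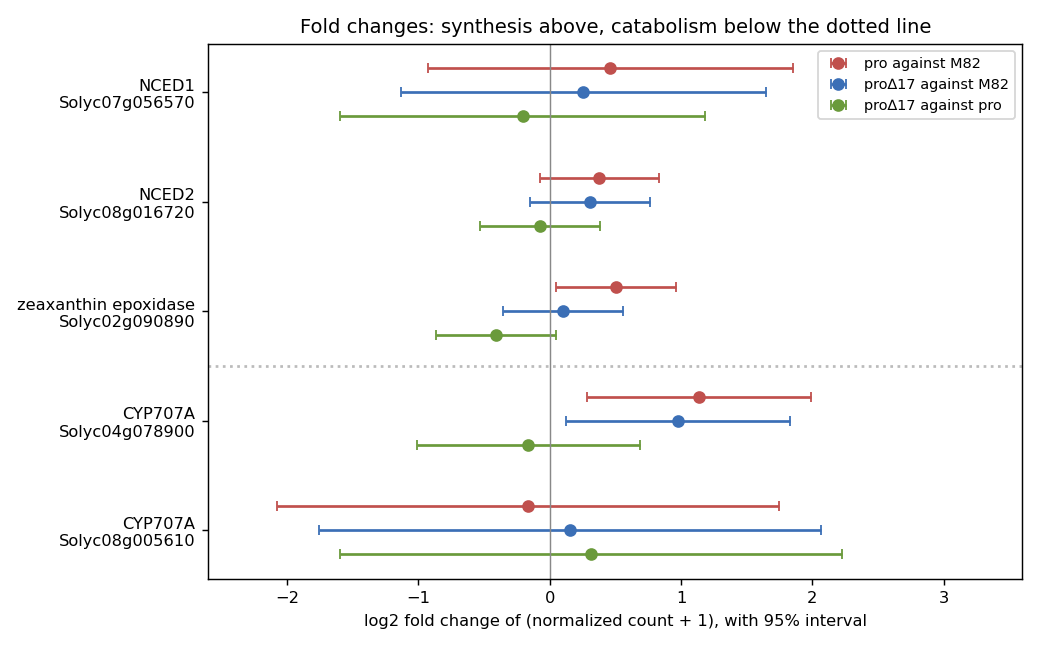
Log2 fold changes of the normalized count plus 1 (x axis) for the 5 genes in the 3 comparisons, with 95% intervals from limma's fit of all 9 libraries, unadjusted for the number of genes. The intervals of Solyc04g078900 against M82 start at 0.29 (pro) and 0.13 (pro∆17), and those of Solyc08g005610 reach about 2 on both sides of 0.

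In the authors' deposited table, too, no member has an adjusted p under 0.05. By that adjusted p it calls 0.751% of its genes in pro against M82, 1.34% in pro∆17 against M82 and 7.81% in pro∆17 against pro. The lowest value of a member is 0.0959, for Solyc04g078900 in pro against M82, where the authors' deposited table gives a log2 fold change of 1.31. For the same locus in pro∆17 against M82 the authors' deposited table gives 0.96 with an adjusted p of 0.368.

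Synthesis and catabolism were also set against each other within each library, as the log2 level of a synthesis gene minus that of a CYP707A locus, taken relative to its mean in M82. These differences were not tested, and those against one CYP707A locus share its values. Relative to Solyc04g078900, NCED2 stood at -0.14, 0.16 and -0.03 in M82 libraries 1, 2 and 3. It stood at -0.45, -0.26 and -1.56 in pro libraries 1, 2 and 3, and at -0.51, -0.72 and -0.78 in those of pro∆17. Here the libraries of both lines lay below those of M82, with the nearest values at -0.14 in M82 and -0.26 in pro. Solyc04g078900 alone already set both lines apart from M82, so this largely restates that locus. Poisson counting alone gives NCED2 an error of 9.61% to 11.3% of its mean by genotype. For zeaxanthin epoxidase, the pro∆17 libraries lay between -0.99 and -0.74, below the -0.42 to 0.36 of M82, and pro overlapped M82, at -1.25 to -0.23. For NCED1 the M82 libraries spanned -1.61 to 1.15 and held both other groups within them, pro at -0.93 to -0.36 and pro∆17 at -0.76 to -0.69.

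Relative to Solyc08g005610, no synthesis gene separated the genotypes. The difference between NCED1 and this locus was narrow in M82, at -0.46 to 0.27 with an SD of 0.40, although each gene alone had an SD over 1.3 there. Both genes were lowest in M82 library 1 and highest in M82 library 3. In pro, the same difference ran from -0.68 in library 2 to 1.82 in library 1, and in pro∆17 from -1.05 in library 2 to 0.80 in library 1. The 2 genes thus kept a common order in M82 and not in pro. In pro∆17 NCED1 was nearly level, at 1038 to 1096, so its order there says little. Library 2 of each line stood low in NCED1 relative to this CYP707A locus. In pro∆17 the CYP707A locus read 368 in that library, against 106 and 127 in libraries 1 and 3. Zeaxanthin epoxidase and the dehydrin locus had that M82 order too, and how many of all genes share it was not counted. Whether the 2 genes are linked was not tested.

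**Figure D4:**
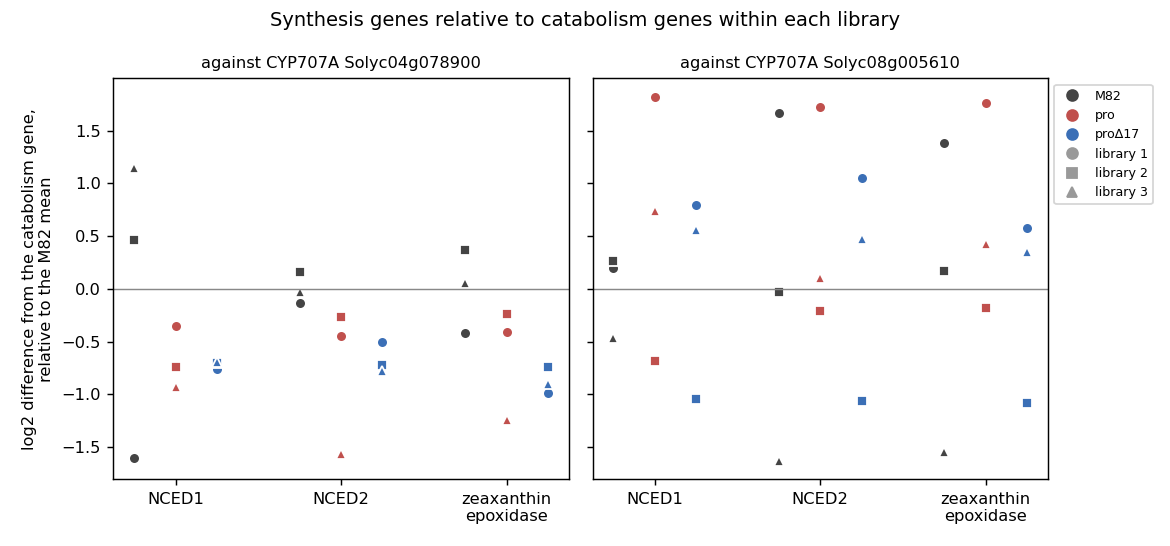
Log2 difference between each synthesis gene (x axis) and a CYP707A locus (one per panel) within a library, relative to its M82 mean (y axis), with colours for genotypes and shapes for libraries. Against Solyc04g078900, NCED2 lies between -1.56 and -0.26 in pro and between -0.78 and -0.51 in pro∆17, below the M82 libraries, and against Solyc08g005610 all genotypes overlap. Solyc04g078900 alone also separates both lines from M82.

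The genes most like each member were sought among 16909 other tested genes with a mean of at least 50 normalized counts, by the root mean square difference of log2 levels over the 9 libraries after centring each gene on its own mean. The closest to zeaxanthin epoxidase were Solyc06g071580 (0.06), Solyc08g066200 (0.07) and Solyc05g026500 (0.08), against 0.30 for the epoxidase about its own mean. Solyc06g071580 read 279 to 358 in M82, 335 to 568 in pro and 314 to 340 in pro∆17. For NCED2 they were Solyc08g022060, Solyc10g055240 and Solyc01g100660, each at 0.10 against 0.23. For Solyc04g078900 they were Solyc04g011670 (0.19), Solyc04g054930 (0.25) and Solyc01g109800 (0.25), against 0.67. Solyc04g011670 read 47.1 to 81.2 in M82, 65.2 to 259 in pro and 88.9 to 138 in pro∆17, with pro library 3 again highest.

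NCED1 had Solyc03g033790 (0.24), Solyc06g075780 (0.26) and Solyc08g065210 (0.32) nearest to it, against 0.77 about its own mean. Solyc03g033790 read 19.4, 39.3 and 149 in M82 libraries 1, 2 and 3, the same library order as NCED1. The genes nearest to Solyc08g005610, namely Solyc06g075690 (0.45), Solyc02g084890 (0.54) and Solyc06g066370 (0.56), lay farther off in absolute terms. Its value about its own mean, 1.03, was also the largest, and the difference was not scaled to that, so this is no ranking of how well patterns match. Solyc06g075690 read 28.6, 60.8 and 198 in those M82 libraries. The table gives no names for these loci, and likeness over 9 libraries that share genotype and handling is a description.

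Further steps of the pathway were read through 4 lists of loci drawn from general knowledge, which no annotation used here checks, so they are given by list and without single loci. No locus of any list passed in any comparison with limma or edgeR, and DESeq2 called 1 carotenoid locus in pro∆17 against pro, where it called 8.84% of all tested genes, and none otherwise. An unadjusted p under 0.05 in limma was reached by 6.83% of all tested genes in pro against M82, 7.79% in pro∆17 against M82 and 18.1% in pro∆17 against pro. Of 12 loci for the carotenoid path from phytoene to zeaxanthin, upstream of the members, 11 were tested. Their log2 fold changes in pro against M82 ran from -0.90 to 0.32 with a median of 0.07, and in pro∆17 against M82 from -0.31 to 0.21 with a median of -0.03. In pro∆17 against pro the median was -0.15, and of the 11 loci, 1 with a positive and 3 with a negative change reached an unadjusted p under 0.05 in limma, beside the 18.1% of all tested genes.

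A list of 5 loci around synthesis held the aldehyde oxidase that makes abscisic acid, the sulfurase of its molybdenum cofactor and the neoxanthin step. It also held a further NCED-like locus and violaxanthin de-epoxidase, which reverses the zeaxanthin epoxidase step, so it is not a list of remaining synthesis steps alone. Of the 5, 4 were tested. The medians of these 4 were -0.11 in pro against M82, 0.07 in pro∆17 against M82 and 0.15 in pro∆17 against pro, with no unadjusted p under 0.05 in limma. Of 4 loci for other CYP707A members and a glucosyltransferase that conjugates the hormone, 3 were tested, all with positive changes against M82, a sign shared by 49.6% of all tested genes in pro and 48.4% in pro∆17. Those changes were 0.24 to 0.60 in pro (median 0.53) and 0.02 to 1.06 in pro∆17 (median 0.21), 1 of the latter with an unadjusted p under 0.05 in limma. Of 11 loci for abscisic acid receptors, 8 were tested, with medians of -0.27 in pro against M82, 0.13 in pro∆17 against M82 and 0.19 in pro∆17 against pro. In pro against M82, 1 receptor locus, a negative change, had an unadjusted p under 0.05 in limma, in pro∆17 against M82 1 of each sign, and in pro∆17 against pro 1 positive. The medians of all tested genes were 0.00, -0.01 and 0.01 in these comparisons.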

How the data were processed

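The authors' deposited table holds a signal value per gene and library, described as normalized counts per the file headers, and the authors' log2 fold changes and adjusted p-values per comparison. The submitters' processing notes name cutadapt, STAR (version 2.4.2a), HTSeq and DESeq2. For the genome build, annotation and strand setting, the entry is: not given in the sources used here. Reads of overlapping, antisense or near-identical genes may therefore be mixed. The RefSeq gene table (assembly SLM_r2.1) matched 0 identifiers.

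Dividing by one step per library gave whole reads (100% of values within 0.006), a check that says little for pro library 1, whose step is nearly 1. Depth was 14826561 to 20445679 reads per library. Poisson errors cover counting only, as amplified reads are not independent molecules. EdgeR's expression filter kept 20951 genes and left out 2077, and 1 identifier occurs in 2 rows, both kept. The main test, limma 3.58.1 in R 4.3.3, modelled log2 of the normalized count plus 1 with a trend of variance on mean, and 3 genotypes in one fit. This scale understates changes of low genes. Alternatives were edgeR 4.0.16 and DESeq2 1.42.0 on the reads, pseudocounts of 0.1 and 5, no filter, only the 6 libraries compared, each library left out, and the replicate number as a block. Limma with a pseudocount of 1, edgeR with a single scaling and DESeq2 were first tried on simulated data, scored for pro against M82 only. The other settings were not tried there. The simulation gave all groups the same spread, unlike these data.

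Same-numbered libraries deviated from their group means together in pro and M82 (r across genes 0.133, 0.503 and 0.523), which counts as pairing for that comparison. The main fit and its intervals ignore this pairing. M82 library 1 went more closely with pro library 2 (r = 0.259) than with pro library 1. Over all comparisons 6 of 9 such pairs were over 0.1.

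Members and lists were chosen with earlier results of these data known. Named are the 5 members, PROCERA, the dehydrin locus and, per member, the 3 genes nearest in pattern.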

Additional observations from a re-analysis of the deposited data

How the results depend on the processing

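Of 270 repeats of the members' log2 fold changes (15 values, 18 settings), 249 kept direction and side of the threshold, 3 newly passed and 18 changed sign, none of these past the threshold. The 3 were Solyc04g078900 in pro against M82 without pro library 2, and in pro∆17 against M82 with the 6 libraries alone, without or with a replicate block (adjusted p = 0.0189), so 1 member was called there in place of 0. Leaving out single libraries gave 0 to 1 member in pro against M82. Direction could not change with no filter, a replicate block, the 6 libraries alone, or a library left out of the genotype not compared. Those settings return the same fold change, so only the side of the threshold could move there, and the 249 overstates how steady direction was.

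Signs changed where single libraries were left out, and the ranges over those fits were as follows. In pro against M82 they were -0.25 to 1.11 for NCED1 and -0.97 to 0.72 for Solyc08g005610. In pro∆17 against M82 they were -0.46 to 0.91 for NCED1, -0.66 to 1.03 for Solyc08g005610 and -0.019 to 0.21 for zeaxanthin epoxidase. In pro∆17 against pro they were -0.63 to 0.16 for NCED1, -0.21 to 0.021 for NCED2, -0.55 to 0.33 for Solyc04g078900 and -0.24 to 0.66 for Solyc08g005610. In pro∆17 against M82 the sign also changed with edgeR (NCED1 -0.12 and Solyc08g005610 -0.23, with either scaling) and DESeq2 (-0.13 and -0.24). The cause was not tested.

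Over all genes, limma called 44 in pro against M82, 25 in pro∆17 against M82 and 712 in pro∆17 against pro. These counts were 183, 327 and 1850 with DESeq2, and 23, 436 and 273 with the 6 libraries alone. With those libraries and the block, a combination chosen after seeing the data, they were 14, 470 and 20, and a pseudocount of 5 gave 41 in pro∆17 against M82. Without single libraries they ranged from 25 to 766, 1 to 199 and 161 to 3196. With the replicate block in all 9 libraries they were 34, 12 and 890, and no call of a member changed. By the correlation of deviations, 8 of 9 libraries were closest to one of their own number, a hint from the data and not from the design.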
